A study of Mus musculus with 8 samples.

Results

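Peroxisomes are small organelles that oxidise fatty acids and other substrates and break down the hydrogen peroxide this produces. A set of 33 genes was examined, chosen by symbol: 13 peroxins that build the organelle, 19 peroxisomal enzymes, transporters and membrane proteins, and Pmp22. The choice was made with earlier results of these data known. All 33 were measured, among 22180 genes in all. Pmp22 is the symbol of a peripheral myelin protein and not of a peroxisomal one (Pxmp2 encodes the peroxisomal membrane protein that once shared the abbreviation), so its values were kept apart from both groups.

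Peroxins place proteins in the peroxisomal membrane, carry enzymes with a targeting signal through it, and divide the organelle. Inside, acyl-CoA oxidases, bifunctional enzymes and thiolases shorten very long and branched fatty acids, and a carnitine acyltransferase hands the products to mitochondria. In intestine, epithelial cells contain many peroxisomes, and the nuclear receptor PPAR-alpha is known to drive many of these enzyme genes.

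The RNA came from colon endothelial cells, sorted as CD31-positive and negative for CD45 and CD11b, of female C57BL/6 mice at day 2 after transplantation of bone marrow and T cells. All recipients had 5 days of busulfan and cyclophosphamide beforehand. In the allogeneic group (n = 4) the donor strain was LP/J, which can give rise to graft-versus-host disease, and in the syngeneic group (n = 4) it was C57BL/6, the recipients' own strain. No untransplanted group was analysed here, and recipient ages were not given in the sources used here. Both groups share the conditioning and a transplant.

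Values are log2 signals of 8 arrays, normalized together. Endothelial genes such as Pecam1 and Cdh5 gave strong signals, but so did colon epithelial genes, so the sorted samples were not purely endothelial by their RNA and a difference cannot be assigned to one cell type. In bulk RNA, fewer cells of a type and less RNA per cell cannot be told apart. The mean over 17 epithelial markers lay between 10.64 and 10.69 on the allogeneic arrays and between 10.11 and 10.71 on the syngeneic ones. The mean over 15 endothelial markers lay between 7.84 and 8.57 on the allogeneic arrays and between 8.20 and 10.08 on the syngeneic ones. Of the epithelial markers 15 of 17 had a positive log2 change and of the endothelial ones 0 of 15. In limma 0 of either list passed, with 3 epithelial markers higher and 6 endothelial ones lower at an unadjusted p below 0.05. At that p, 7.81% of all genes were higher and 5.43% lower. The mean over 13 leukocyte markers was between 4.93 and 5.62 on all arrays, with 6 positive and 7 negative log2 changes. The 1 leukocyte marker at an unadjusted p below 0.05 was Ly6g, lower in the allogeneic group without overlap. Its means were 7.14 allogeneic and 8.31 syngeneic (log2 change -1.17, limma adjusted p = 0.222). Of 6 fibroblast markers 5 had a positive log2 change (median 0.36, among them Pdgfra 1.03, Lum 0.83 and Dcn 0.51), with 3 higher at an unadjusted p below 0.05, and their mean was between 7.45 and 8.51 on the allogeneic arrays and between 6.96 and 7.87 on the syngeneic ones. Of 9 pericyte and smooth muscle markers 8 had a negative change (median -0.28), with 2 lower at an unadjusted p below 0.05, and their mean was between 7.64 and 8.31 on the allogeneic arrays and between 7.75 and 8.68 on the syngeneic ones. None of these passed in limma, and their part in the results was not tested. Syngeneic arrays 3 and 4 stood apart, with the highest endothelial means (9.26 and 10.08) and the lowest epithelial means (10.43 and 10.11). Some results below are therefore also given without these arrays. A gene for which no such value is given may depend on them as well. The highest value of 3 Y-linked genes, 3.18, served as a guide to background in these female mice.

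The promoters of Hao2, Pxmp4 and Cat are shown because these are the member with the clear difference, the member next to the threshold, and the gene of the enzyme that removes the peroxide made by the first. Each is the 250 bases before the annotated start, 5′ to 3′, from RefSeq (GRCm38.p6): Hao2 at chr3:98893231-98893480, minus strand, Pxmp4 at chr2:154603674-154603923, minus strand and Cat at chr2:103485154-103485403, minus strand. Capitals mark motifs found on either strand, so that a motif may stand as its reverse complement. They are the CCAAT box known from many promoters, the GC box with the letters GGGCGG known to bind Sp1, and GTTAAT, a motif described after the sequences.
Hao2: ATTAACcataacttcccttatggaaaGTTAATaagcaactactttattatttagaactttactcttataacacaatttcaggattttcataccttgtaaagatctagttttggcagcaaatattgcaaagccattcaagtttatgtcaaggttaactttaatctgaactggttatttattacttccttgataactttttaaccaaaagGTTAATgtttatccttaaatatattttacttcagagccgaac
Pxmp4: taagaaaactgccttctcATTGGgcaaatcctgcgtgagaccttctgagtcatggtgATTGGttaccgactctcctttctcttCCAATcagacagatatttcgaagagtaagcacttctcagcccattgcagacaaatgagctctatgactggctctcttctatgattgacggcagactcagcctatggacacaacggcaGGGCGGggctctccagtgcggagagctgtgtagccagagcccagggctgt
Cat: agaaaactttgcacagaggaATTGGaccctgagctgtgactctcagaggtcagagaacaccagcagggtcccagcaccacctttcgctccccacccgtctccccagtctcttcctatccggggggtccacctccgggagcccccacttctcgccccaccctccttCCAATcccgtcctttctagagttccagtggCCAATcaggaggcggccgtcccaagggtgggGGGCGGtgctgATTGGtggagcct

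The Hao2 promoter differed in base content from those of the other members. It was 28.4% G and C with 1 CpG, against 51.2% and 7 CpGs for Pxmp4 and 62.0% and 9 for Cat. Nearest to it among the members were Pex7 in G and C content (40.0%) and Acaa1b in CpGs (2, with 41.6% G and C). RefSeq's table held 33 promoters of 26 of the 33 genes, with a median of 12 CpGs. The 14 promoters of 11 peroxin genes held from 6 to 34 CpGs, and the 15 of 14 enzyme and membrane protein genes from 1 to 35. Of all 32841 promoters of this length in the table, 1.03% had as low a G and C content as Hao2 and 18.8% had at most 1 CpG.

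GTTAAT, the repeated arm of the sequence known to bind HNF1 factors, occurred 3 times in the Hao2 promoter. It was searched after this sequence had been seen. It was present in 6.43% of all promoters, and 7 of the 32841 held it at least 3 times. Promoters of any base content were counted, so these shares do not compare Hao2 with promoters as low in G and C. CCAAT occurred 3 times in the Pxmp4 promoter, 4 times in that of Cat and not in that of Hao2 (33.9% of all promoters have it). GGGCGG was found in 20 of the 33 member promoters (60.6%), those of Pmp22 included, against 32.7% of all promoters. With Pmp22 left aside it was in 8 of 14 peroxin promoters and in 10 of 15 of the enzymes and membrane proteins. Of the genes, 4 had more than 1 promoter, and windows of Pex5 overlap, so the promoters are not independent. A pair of AGGNCA copies spaced by 1 base, the kind of repeat PPAR factors bind, was in 0 of the 33 and in 0.338% of all promoters, both strands searched, which says only that these letters are not in these windows. TATAAA was in 3 of the 33, those of Pex14, Pex16 and Pex26, and in 12.4% of all. These matches are letters in a sequence, and no binding was measured.

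The comparison asked whether peroxisomal genes differed between allogeneic and syngeneic recipients. Of the 33 genes 1 rose in the allogeneic group, Hao2, at an adjusted p below 0.05 in limma, while 0.356% of all genes tested rose. None fell (0 members at an unadjusted p below 0.05 in limma as well), against 0.113% of all genes (5.43% at the unadjusted p). A positive log2 change, not itself a call, was seen in 31 of 33, with a median of 0.24, where the median over all genes was -0.01. The 13 biogenesis genes had a median log2 change of 0.14 and a range from -0.24 to 0.39. The 19 enzymes, transporters and membrane proteins had a median of 0.33 and a range from 0.02 to 2.54, and 0.32 with Hao2 left out.

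**Figure D1:**
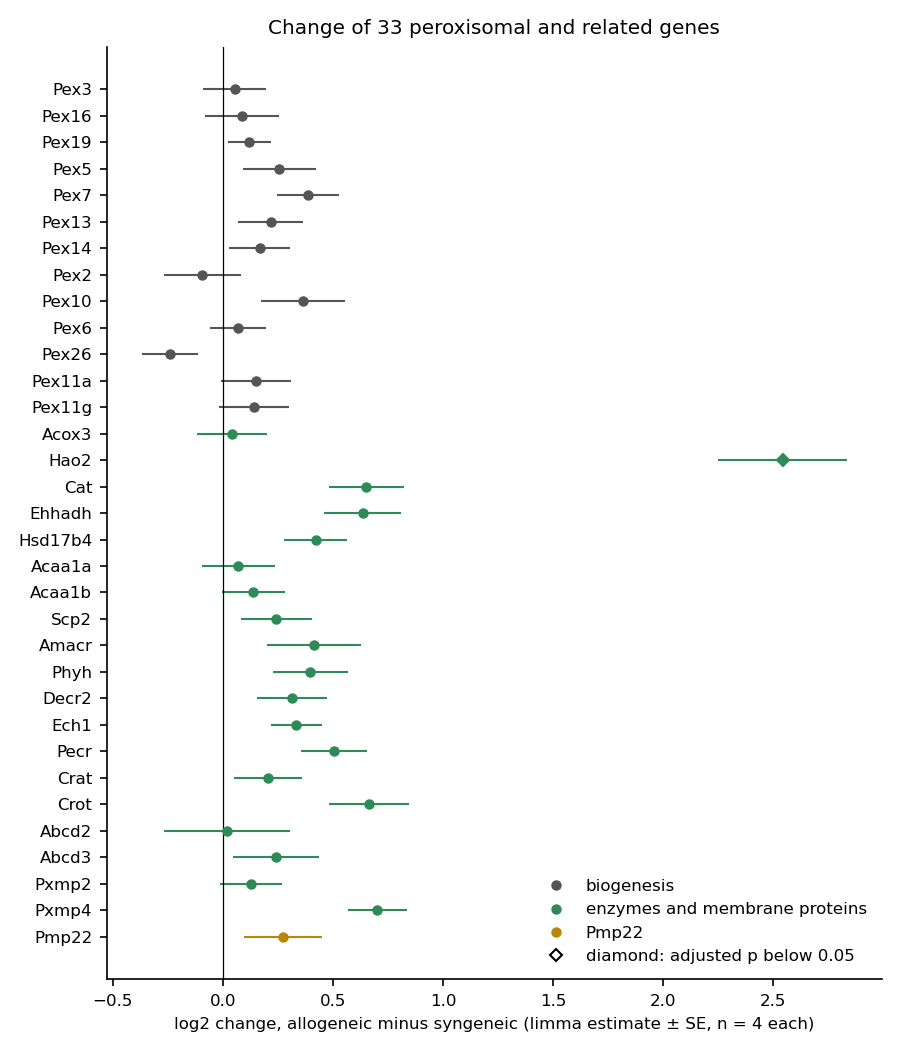
The log2 change (allogeneic minus syngeneic, limma estimate with its SE, 4 arrays per group) of each of the 33 genes, ordered by role. Hao2 stands at 2.54, the other 32 lie between -0.24 and 0.70, and only Pex2 and Pex26 lie below 0.

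Hao2 encodes a peroxisomal oxidase that turns long-chain 2-hydroxy acids into keto acids and makes hydrogen peroxide. Its signal on the allogeneic arrays 1 to 4 was 9.57, 9.63, 9.65 and 10.13, and on the syngeneic arrays 1 to 4 it was 7.40, 7.98, 7.08 and 6.35. The groups were more than 1 log2 unit apart at their nearest arrays, and the syngeneic arrays spread more widely. The means were 9.75 ± 0.26 and 7.20 ± 0.68 (SD, n = 4 each), a 5.82-fold rise (log2 change 2.54 ± 0.29 SE, limma adjusted p = 0.0098).

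Within the syngeneic group Hao2 was lowest on array 4, which had the lowest epithelial and the highest endothelial mean, and highest on array 2, which had the highest epithelial mean. The rise stayed past the threshold with the epithelial mean as a covariate (2.12, limma adjusted p = 0.000765), with the endothelial mean as a covariate (2.10, limma adjusted p = 0.0282) and without syngeneic arrays 3 and 4 (2.05, limma adjusted p = 0.0149). It lost the call without syngeneic array 3 alone (2.50, limma adjusted p = 0.0541), and with a linear model without moderation, in which no gene of the 22180 passed. The epithelial mean was nearly flat on the allogeneic arrays (10.64 to 10.69). As a covariate it therefore rests mainly on syngeneic arrays 3 and 4 (10.43 and 10.11). Both covariates are means of markers on these same arrays, and the part of cell mixture in the rise was not tested.

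Acox3, an acyl-CoA oxidase for branched chains, had nearly the same mean in both groups, 6.81 allogeneic and 6.77 syngeneic (log2 change 0.04 ± 0.16 SE, limma adjusted p = 0.944). Hao1, the liver relative of Hao2, was between 2.96 and 3.53 on all arrays, near the Y-linked guide, with a log2 change of -0.01. The other measured oxidase genes outside the set (Acox2, Acoxl, Pipox, Dao, Ddo, Uox and Xdh) gave 0 calls in limma, and 1 at an unadjusted p below 0.05. That was Xdh, which encodes xanthine oxidoreductase and had a lower allogeneic mean, 8.08 ± 0.31 against 9.09 ± 0.48 (SD, n = 4 each, limma adjusted p = 0.0997). At an unadjusted p below 0.05 in limma, 5.43% of all genes were lower. Of the measured oxidase genes, Hao2 was the 1 past the threshold.

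Cat encodes catalase, which breaks down hydrogen peroxide in peroxisomes. Its signal was 9.93, 9.75, 10.10 and 10.10 on allogeneic arrays 1 to 4 and 9.36, 9.71, 8.85 and 9.36 on syngeneic arrays 1 to 4. The groups did not overlap, but allogeneic array 2 and syngeneic array 2 were nearly equal. The difference (log2 change 0.65 ± 0.17 SE) did not pass over all genes (limma adjusted p = 0.129). It was 0.43 without syngeneic arrays 3 and 4.

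**Figure D2:**
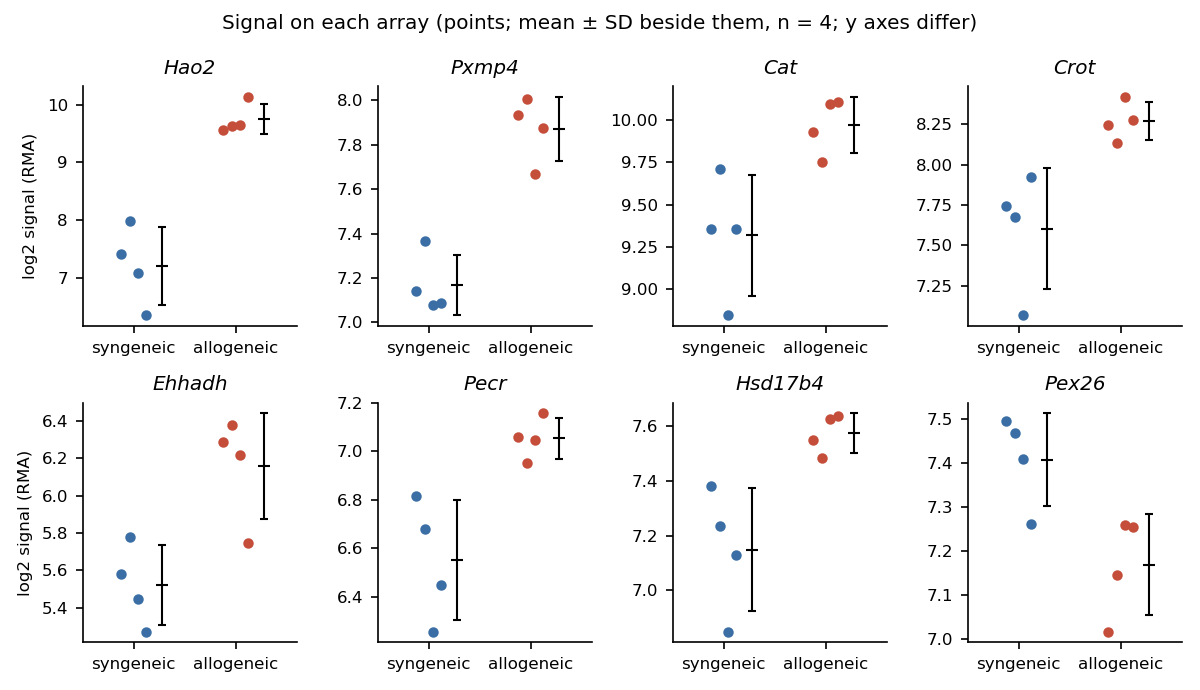
Log2 signal of 8 members on each of the 4 syngeneic (blue) and 4 allogeneic (red) arrays, with the mean and SD beside the points; the y axes differ. Hao2 lies from 6.35 to 7.98 on the syngeneic arrays and from 9.57 to 10.13 on the allogeneic ones, the groups of Ehhadh overlap, and Pex26 is the member whose allogeneic arrays all lie below the syngeneic ones.

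The core enzymes of peroxisomal beta-oxidation had positive log2 changes and none passed (0 of 5 in limma, 2 at an unadjusted p below 0.05). Higher values at that p were seen for 7.81% of all genes. Ehhadh, the bifunctional enzyme of straight chains, was 6.29, 6.38, 6.22 and 5.74 on allogeneic arrays 1 to 4 and 5.58, 5.78, 5.45 and 5.27 on syngeneic arrays 1 to 4. Allogeneic array 4 fell below syngeneic array 2, so the groups overlapped (log2 change 0.64 ± 0.18 SE, limma adjusted p = 0.143).

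Hsd17b4, the bifunctional enzyme that also serves branched chains and bile acid precursors, was 7.55, 7.48, 7.62 and 7.64 against 7.38, 7.24, 6.85 and 7.13 in the same order. All 4 allogeneic arrays were above all 4 syngeneic arrays (0.42 ± 0.14 SE, limma adjusted p = 0.229). Without syngeneic arrays 3 and 4 the change of Hsd17b4 was 0.26. The thiolase genes showed smaller differences, with 0.07 ± 0.17 (SE) for Acaa1a, 0.14 ± 0.14 for Acaa1b and 0.24 ± 0.16 for Scp2, and limma adjusted p-values from 0.570 to 0.903. Acaa1a and Acaa1b are close relatives, so signal of either can be read at the probes of the other and their separate values are uncertain.

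The auxiliary enzymes, which prepare unsaturated and branched fatty acids, lay between 0.32 and 0.50 on the log2 scale of change. In limma 0 of 5 passed, and 3 were higher at an unadjusted p below 0.05, as were 7.81% of all genes. Pecr, an enoyl-CoA reductase, was 7.06, 6.95, 7.05 and 7.16 on allogeneic arrays 1 to 4 and 6.82, 6.68, 6.26 and 6.45 on syngeneic arrays 1 to 4. The groups did not overlap (0.50 ± 0.15 SE, limma adjusted p = 0.176). The change of Pecr was 0.31 without syngeneic arrays 3 and 4. Ech1, an enoyl-CoA isomerase, was between 10.29 and 10.76 on the allogeneic arrays and between 10.07 and 10.25 on the syngeneic ones. These too did not overlap (0.33 ± 0.12 SE, limma adjusted p = 0.242).

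Amacr, the racemase of branched acyl-CoAs, gave 0.41 ± 0.21 (SE), Decr2, a dienoyl-CoA reductase, 0.32 ± 0.16 and Phyh, the hydroxylase of phytanic acid breakdown, 0.40 ± 0.17, each with overlapping groups. Without syngeneic arrays 3 and 4 these changes were 0.76, 0.24 and 0.22. Phyh had another probe set with a lower signal, 3.67 on average, and a change of 0.07 there. Of the carnitine acyltransferases, Crot, which takes octanoyl chains, was 8.25, 8.13, 8.42 and 8.28 on allogeneic arrays 1 to 4 and 7.75, 7.68, 7.07 and 7.93 on syngeneic arrays 1 to 4. Its groups did not overlap (0.67 ± 0.18 SE, limma adjusted p = 0.142). Crat, which takes acetyl groups, overlapped (0.21 ± 0.15 SE), and its other probe set gave -0.12.

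Pxmp4, a peroxisomal membrane protein, came next to the threshold. Its signal was 7.93, 8.01, 7.67 and 7.87 on allogeneic arrays 1 to 4 and 7.14, 7.37, 7.08 and 7.09 on syngeneic arrays 1 to 4. The groups did not overlap, and the spread within each was alike, 7.87 ± 0.14 and 7.17 ± 0.14 (SD, n = 4 each). The log2 change of 0.70 ± 0.13 (SE) missed the threshold narrowly (limma adjusted p = 0.0526). It passed in 6 of 20 alternative settings, with limma adjusted p-values from 0.0307 to 0.189 over all 20, and was 0.62 without syngeneic arrays 3 and 4 (limma adjusted p = 0.173).

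The other membrane proteins were Abcd2 and Abcd3, transporters of fatty acyl-CoAs, and Pxmp2, a channel protein. Abcd2 lay between 3.02 and 4.19 on all arrays, reaching below the Y-linked guide, so its change of 0.02 ± 0.29 (SE) rests on signals near background. Abcd3 changed by 0.24 ± 0.19 (SE) and Pxmp2 by 0.13 ± 0.14, with overlapping groups. Pmp22, the myelin protein, had overlapping groups as well, with allogeneic array 4 highest at 10.69 and the other 7 arrays between 9.66 and 9.95 (0.28 ± 0.18 SE, limma adjusted p = 0.554).

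Over these 19 genes 7 had all allogeneic arrays above all syngeneic arrays, namely Hao2, Cat, Hsd17b4, Ech1, Pecr, Crot and Pxmp4, against 5.18% of all genes tested. An unadjusted p below 0.05 toward higher values was seen for 9 of the 19 (7.81% of all genes). The genes were chosen with earlier results of these data known, so these counts only describe the list. The mean over the 18 genes other than Hao2 was between 7.33 and 7.37 on the allogeneic arrays and between 6.92 and 7.09 on the syngeneic ones. On syngeneic arrays 1 to 4 it was 7.03, 7.09, 7.00 and 6.92, where the epithelial means were 10.67, 10.71, 10.43 and 10.11. The median log2 change of the 19 genes, 0.33, was 0.26 with the epithelial mean as a covariate, 0.29 with the endothelial mean, and 0.26 without syngeneic arrays 3 and 4. Of the 19 changes 18, 18 and 17 remained above 0 in these settings.

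**Figure D3:**
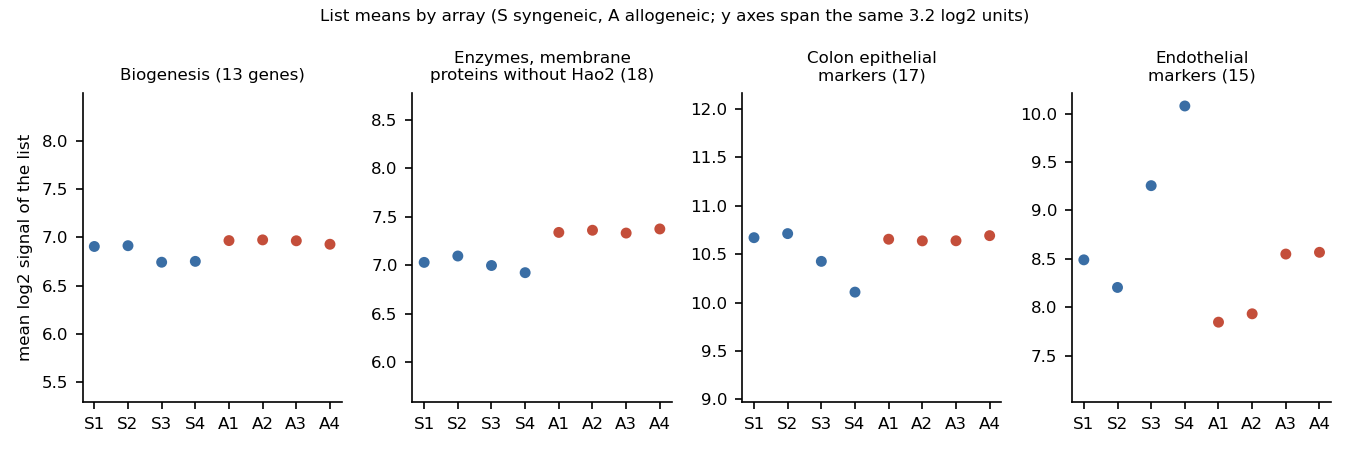
Mean log2 signal of 4 gene lists on each syngeneic (S, blue) and allogeneic (A, red) array; the y axes span equal ranges. The 18 enzymes and membrane proteins other than Hao2 lie from 6.92 to 7.09 on the syngeneic arrays and from 7.33 to 7.37 on the allogeneic ones, while endothelial markers peak at 10.08 on syngeneic array 4.

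The 13 peroxins gave 0 calls in limma and 1 at an unadjusted p below 0.05, Pex7, where 7.81% of all genes were higher at that p. Of them 11 had a positive log2 change and 0 had all allogeneic arrays above the syngeneic ones (5.18% of all genes). Their mean was between 6.93 and 6.97 on the allogeneic arrays and between 6.74 and 6.91 on the syngeneic ones. Syngeneic arrays 1 and 2 (6.91 each) were just under the lowest allogeneic array, and arrays 3 and 4 (6.74 and 6.75) were lower. The median change of 0.14 was 0.11 with the epithelial mean as a covariate, 0.07 with the endothelial mean and 0.08 without syngeneic arrays 3 and 4.

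Pex5 and Pex7 are the receptors that recognise the targeting signals of peroxisomal enzymes. Pex7 was 6.49, 6.64, 6.26 and 6.55 on allogeneic arrays 1 to 4 and 6.30, 6.01, 6.07 and 6.01 on syngeneic arrays 1 to 4. Allogeneic array 3 was just below syngeneic array 1, so the groups overlapped (0.39 ± 0.14 SE, limma adjusted p = 0.263). Pex5 gave 0.26 ± 0.16 (SE).

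Pex13 and Pex14, which dock the loaded receptors at the membrane, gave 0.22 ± 0.15 and 0.17 ± 0.14 (SE). Of the ubiquitin ligases that recycle the receptors, Pex10 gave 0.36 ± 0.19 and Pex2 -0.09 ± 0.17 (SE). Pex3, Pex16 and Pex19, which assemble the membrane, gave 0.05, 0.09 and 0.12, and Pex11a and Pex11g, which act in division, 0.15 and 0.14. Groups overlapped for all of these genes, and every change was smaller than 2 standard errors.

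Pex26 anchors the export complex, whose motor protein is Pex6, and was the one member with all allogeneic arrays below all syngeneic arrays, as were 3.36% of all genes. Its signal was 7.02, 7.15, 7.26 and 7.25 on allogeneic arrays 1 to 4 and 7.50, 7.47, 7.41 and 7.26 on syngeneic arrays 1 to 4. Allogeneic array 3 and syngeneic array 4 were nearly equal, and the difference did not pass (-0.24 ± 0.13 SE, limma adjusted p = 0.457). Pex6 gave 0.07 ± 0.13 (SE).

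Other genes of the organelle were taken from lists of peroxins and fission factors, oxidases, further peroxisomal enzymes, ether lipid synthesis, transport, and PPAR factors and targets. Of 87 listed genes 73 were measured, and of these 1 rose and 0 fell in limma (19 and 2 at an unadjusted p below 0.05). Over all genes, 0.356% rose and 0.113% fell (7.81% and 5.43% at the unadjusted p). The median log2 change was 0.12, and 52 changes were positive.

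The gene that rose was Lonp2, which encodes a protease of the peroxisomal matrix. Its signal was 8.41, 8.26, 8.21 and 8.21 on allogeneic arrays 1 to 4 and 7.61, 7.65, 7.40 and 7.51 on syngeneic arrays 1 to 4. The groups were well apart and tight. This is a 1.66-fold rise (0.73 ± 0.12 SE, limma adjusted p = 0.034). The call was lost with the epithelial or the endothelial mean as a covariate (0.69 and 0.64, limma adjusted p = 0.0623 and 0.118), without syngeneic arrays 3 and 4 (0.64, limma adjusted p = 0.115), and on leaving out 1 array in 6 of 8 cases (it held without syngeneic array 2 or 4).

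Among the other 23 measured genes on the list of further peroxisomal enzymes Eci3, an enoyl-CoA isomerase, gave 0.97 ± 0.25 (SE, limma adjusted p = 0.125). Acad11, an acyl-CoA dehydrogenase on that list, gave 0.75 ± 0.24 (limma adjusted p = 0.203). Without syngeneic arrays 3 and 4 these changes were 0.69 and 0.47. Slc25a17, the carrier of cofactors across the peroxisomal membrane, gave 0.70 ± 0.19 (limma adjusted p = 0.137). Slc27a2, an acyl-CoA synthetase and fatty acid transporter, gave 0.72 ± 0.29, but its other probe set gave -0.14. Without syngeneic arrays 3 and 4 the changes of Slc25a17 and Slc27a2 were 0.63 and 0.44. Trim37, a ubiquitin ligase that acts on Pex5, gave 0.57 ± 0.16 and Usp9x, a deubiquitinase of Pex5, 0.45 ± 0.13, both with groups that did not overlap and limma adjusted p-values of 0.148 and 0.176. Their changes were 0.47 and 0.32 without syngeneic arrays 3 and 4. Gdap1, a factor of mitochondrial and peroxisomal fission, gave 0.16 ± 0.14 and Abcd4, a lysosomal relative of the peroxisomal transporters, -0.17 ± 0.13, both with overlapping groups. The Gdap1 signal was near the Y-linked guide, with means of 3.18 allogeneic and 3.02 syngeneic. Genes of ether lipid synthesis, among them Far1 (0.40), Far2 (0.67) and Agps (0.19), overlapped. Without syngeneic arrays 3 and 4 these changes were 0.14, 0.09 and 0.19.

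Of 23 measured PPAR factors and targets 0 passed in limma, and 6 were higher and 1 lower at an unadjusted p below 0.05. Over all genes, 7.81% were higher and 5.43% lower at that p. The lower one of the 23 was Cyp4a31 (log2 change -0.49 ± 0.19 SE, limma adjusted p = 0.296). Its means, 3.30 allogeneic and 3.79 syngeneic, were near the Y-linked guide. Of the 23 changes 17 were positive and 6 negative, among the latter also Angptl4 (-0.40), Cd36 (-0.31) and Cyp4a14 (-0.28). Ppara itself was 6.49, 6.60, 6.39 and 6.49 on allogeneic arrays 1 to 4 and 5.72, 6.62, 4.69 and 5.61 on syngeneic arrays 1 to 4. The allogeneic arrays were close together, and syngeneic array 2 was higher than each of them (0.83 ± 0.32 SE, limma adjusted p = 0.294). The change of Ppara was 0.32 without syngeneic arrays 3 and 4. Fabp2, a fatty acid binding protein of enterocytes, was between 10.84 and 11.09 on the allogeneic arrays and between 9.15 and 10.40 on the syngeneic ones (1.21 ± 0.27 SE, limma adjusted p = 0.0842). Cpt1a, the gate of mitochondrial fatty acid uptake, gave 0.65 ± 0.14 (limma adjusted p = 0.0869), the coactivator gene Ppargc1a 0.94 ± 0.32 (limma adjusted p = 0.241) and Pparg 0.12 ± 0.15. In the fit without syngeneic arrays 3 and 4 these 3 changes were 0.47, 0.56 and -0.09. The 2 syngeneic arrays with low epithelial means, 3 and 4, were the lowest for Fabp2 (9.20 and 9.15), and without them its change was smaller, 0.64, and passed (limma adjusted p = 0.0404).

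**Figure D4:**
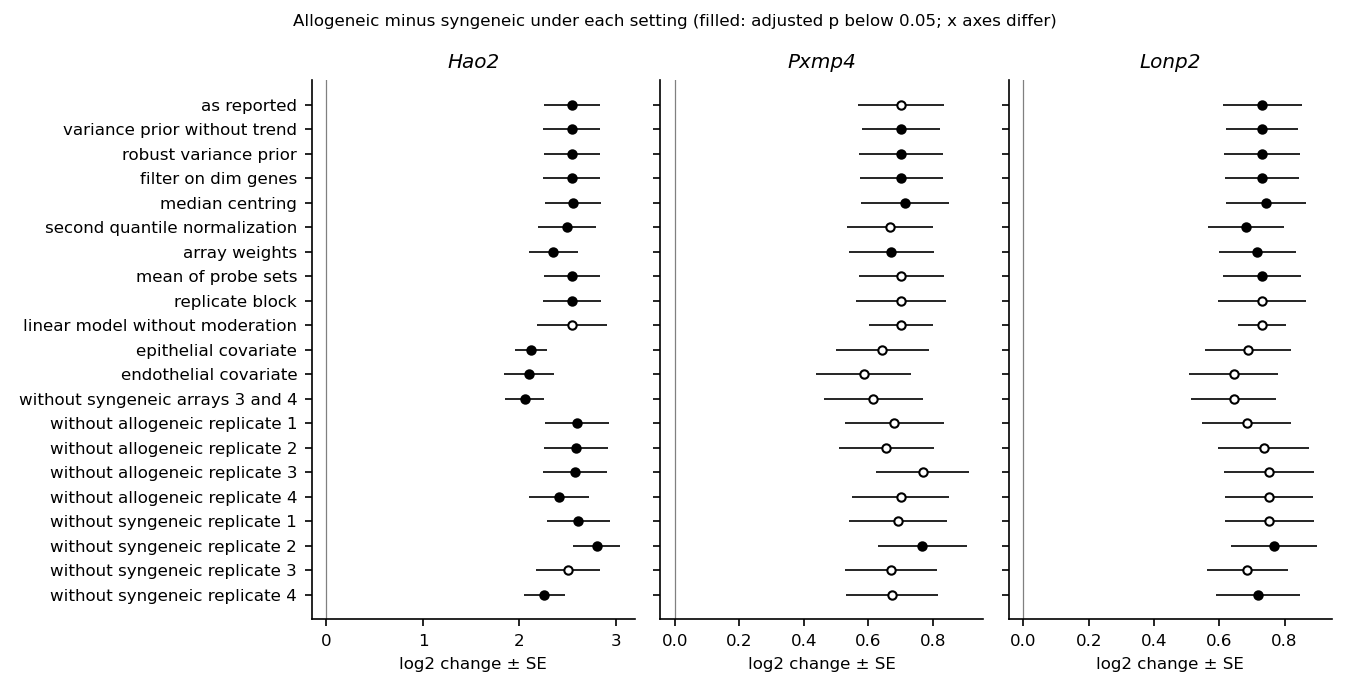
Log2 change with its SE of Hao2, Pxmp4 and Lonp2 as reported and under 20 alternative settings, filled where the adjusted p was below 0.05; the x axes differ. Hao2 stayed between 2.05 and 2.80 and passed in 18 of 20, Pxmp4 in 6 and Lonp2 in 9.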

How the data were processed

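For each probe set the deposited value is a log2 signal from RMA in Affymetrix Expression Console 1.4.1 (background correction, quantile normalization and summary of probes), per the submitters' processing notes. RNA of each sorted sample (700 pg) was amplified before hybridization, per the labels' protocols. The probe annotation used by the authors is not given in the sources used here. Of 41345 probe sets, 23521 had exactly 1 gene symbol in the platform annotation, and the one with the highest mean over the 8 arrays stood for each of 22180 genes. Groups came from the sample titles. limma 3.58.1 in R 4.3.3 (lmFit, eBayes with trend) gave log2 changes, allogeneic minus syngeneic, without a filter, with Benjamini-Hochberg adjustment over all genes and a threshold of 0.05. Data with 4 arrays per group and 22180 genes were simulated, with spreads shuffled over genes and changes placed in genes above the median signal. There limma recovered 26% of 1.5-fold, 71.2% of 2-fold and 97.6% of 4-fold changes, with 6.14% false calls. Dimmer genes were given no change, and the shared deviation of syngeneic arrays 3 and 4 was not simulated. The number of arrays limits the precision. The members and lists were chosen with earlier results of these data known. All members are named, with the 3 smallest p-values per pathway list, any called gene and preset genes. No batch or date was at hand. Alternatives are given in the closing section.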

Additional observations from a re-analysis of the deposited data

Results flagged for a closer look

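In 4 of 116 sets of 4 arrays, 1 array was far from the other 3, by the gap to its nearest neighbour as a share of the whole range. Chance alone marks about 1 set in 20. All 4 were in the allogeneic group. Hao2 on allogeneic array 4 was 10.13 against 9.57 to 9.65 on the others, a gap of 0.854 of the range, and without that array the log2 change was 2.41. Pex3 on allogeneic array 4 was 8.03 against 8.35 to 8.37 (0.947 of the range). Acox3 on allogeneic array 2 was 6.44 against 6.91 to 6.95 (0.911), and Pex6 on the same array 7.78 against 7.84 to 7.85 (0.857).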

How the results depend on the processing

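Each result was recomputed under 20 alternatives, and of 1071 values for single genes 1018 kept their direction and their side of the threshold. The number of members that rose, 1, became 2 (Hao2 and Pxmp4) without the trend in the variance prior, with a robust prior, with a filter on dim genes, with median centring and with array weights, and 0 with a linear model without moderation, in which 0 of all genes passed (104 in the reported fit). Leaving out 1 array gave 0 to 2 members. The number of other pathway genes that rose, 1, became 0 with the replicate block, without moderation, and with the epithelial or endothelial covariate, and 0 to 4 when 1 array was left out. The biogenesis median of 0.14 became 0.0692 with the endothelial covariate. Over all alternatives between 0 and 193 genes passed in the whole table. The cause of these shifts was not tested.

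Signs turned for small changes, none past the threshold. With the epithelial covariate Pex6 was -0.0391, Acox3 -0.0382 and Pparg -0.0486. With the endothelial covariate Pex16 was -0.0400, Pex6 -0.0543, Abcd3 -0.0434 and Pparg -0.0580. Without syngeneic arrays 3 and 4 Pex16 was -0.0556, Pex6 -0.0461, Acox3 -0.0199, Abcd3 -0.0095 and Pparg -0.0934. Hao1 was 0.00404 with median centring and 0.0162 with a second quantile normalization. Leaving out 1 array gave ranges of -0.0287 to 0.164 for Acox3, -0.111 to 0.0779 for Hao1, -0.0287 to 0.198 for Pex16, -0.195 to 0.0305 for Pex2, -0.15 to 0.24 for Abcd2, -0.20 to 0.0031 for Uox, -0.0379 to 0.136 for Pex3 and -0.0129 to 0.127 for Pex6.

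Replicate numbers were shared by the groups, but deviations from the group means of same-numbered arrays correlated between -0.0963 and 0.0954 across genes, and 1 of 4 allogeneic arrays correlated best with its own number, so the numbers were not taken as pairs. With the replicate block 68 genes passed in place of 104, Hao2 kept its call (limma adjusted p = 0.0274) and Lonp2 lost it (limma adjusted p = 0.0707). The covariates and the fit without syngeneic arrays 3 and 4 came from earlier results of these data. The 4 arrays per group limit what small differences can be told from array spread, and Abcd2, Hao1, Uox, Gdap1 and Cyp4a31 were near background.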
